A study of Homo sapiens with 6 samples.

Results

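The ATP-binding cassette (ABC) transporter family was examined in OVCAR5 cells, an established human ovarian cancer (OC) line of epithelial type. Its members were taken as every row of the count table whose gene identifier, with the version removed, carries a protein-coding GENCODE 44 symbol made of ABCA to ABCG and a number, and 46 of 60649 rows met this rule. They comprised 12 members of subfamily A, 9 of B, 11 of C, 4 of D, 1 of E, 4 of F and 5 of G. The F count includes the readthrough ABCF2-H2BK1, which had no count in any library. Poly(A) RNA of 6 libraries was sequenced, 3 from cells that carry a METTL3 construct delivered by lentivirus and 3 from vector control cells made in parallel with empty-vector lentivirus, both under puromycin selection and with no drug treatment named in the labels. The control titles carry a letter that the labels do not spell out. No source used here says whether the cells were clones or mixed populations, or whether replicates were separate cultures, so each p-value below measures the spread between these libraries, which may be technical. The comparison addresses which transcripts accompany a higher METTL3 level in a study of platinum (Pt) resistance.

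ABC proteins bind and hydrolyse ATP through conserved nucleotide-binding domains, and most members couple this to moving a substrate across a membrane. Subfamily A carries mainly lipids, subfamily B holds drug and peptide exporters and mitochondrial carriers, subfamily C holds the multidrug resistance proteins (MRPs) and channel regulators, subfamily D serves peroxisomes and lysosomes, and subfamily G carries sterols, urate and drugs. E and F members have no membrane-spanning part and act in translation. Exporters such as P-glycoprotein (ABCB1), MRP1 (ABCC1) and the breast cancer resistance protein (ABCG2) are known for lowering the amount of drug held in tumour cells. METTL3 is the catalytic subunit of the nuclear complex that writes N6-methyladenosine on mRNA.

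Counts assigned to genes ranged from 96633925 to 125463386 per library. Levels are given as CPM, counts scaled to library size, and always in the order of replicates 1, 2 and 3. METTL3 itself had levels of 152.4, 165.5 and 175.3 CPM where it was overexpressed, against 80.6, 68.6 and 71.6 CPM in vector control cells. The groups did not overlap, and the log2 fold change was 1.16 with a standard error (SE) of 0.12 (edgeR adjusted p = 0.072). Reads of the construct and of the cell's own gene were not separated. All 6 epithelial markers stood at a mean of 1 CPM or more, as did 2 of 6 ovarian or Mullerian, 2 of 6 fibroblast, 2 of 6 leukocyte and 1 of 5 endothelial markers, with WT1, SOX17, ESR1, EMX2 and the leukocyte marker PTPRC under 1 CPM. The summed level of the 6 epithelial markers ranged from 7172 to 8176 CPM with METTL3 and from 5820 to 9075 CPM in the controls. The matching ranges were 12.5 to 61.4 and 8.63 to 13.9 CPM for the ovarian list, 17.5 to 20.05 and 9.15 to 20.3 CPM for the fibroblast list, 35.9 to 47.8 and 44.5 to 64.1 CPM for the leukocyte list, and 9.08 to 23.3 and 5.96 to 8.71 CPM for the endothelial list. No marker was at 0 on average, and the part of these differences in the results below was not tested. Replicate 1 of each group stood apart from replicates 2 and 3, so comparisons are given on all 6 libraries and on the 4 libraries of replicates 2 and 3. In these bulk samples, fewer cells that express a gene and less RNA per cell cannot be told apart.

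Of the 46 members, 40 passed the filter on low counts and were tested, 28 of them at a mean of 1 CPM or more and 12 below it. Levels of different genes are compared here as CPM per kilobase of exon, averaged over the 6 libraries. On that scale ABCF1, which acts in translation initiation, led the family at 34.8, followed by the conjugate exporter ABCC3 at 32.7, the ribosome recycling factor ABCE1 at 26.5 and the conjugate exporter ABCC1 at 25.8. ABCD3, a peroxisomal carrier of fatty acids, led subfamily D at 9.67 CPM per kilobase. ABCB10, a mitochondrial carrier needed for haem synthesis, led subfamily B at 8.20, and ABCA2, a lipid carrier of lysosomes, led subfamily A at 7.70. ABCG2 led subfamily G at 3.22, so the most abundant drug exporters of these cells by this measure belonged to subfamily C. Among members at 1 CPM or more, the range per kilobase ran from 0.587 to 7.70 in A, from 0.200 to 8.20 in B and from 0.326 to 32.7 in C.

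**Figure D1:**
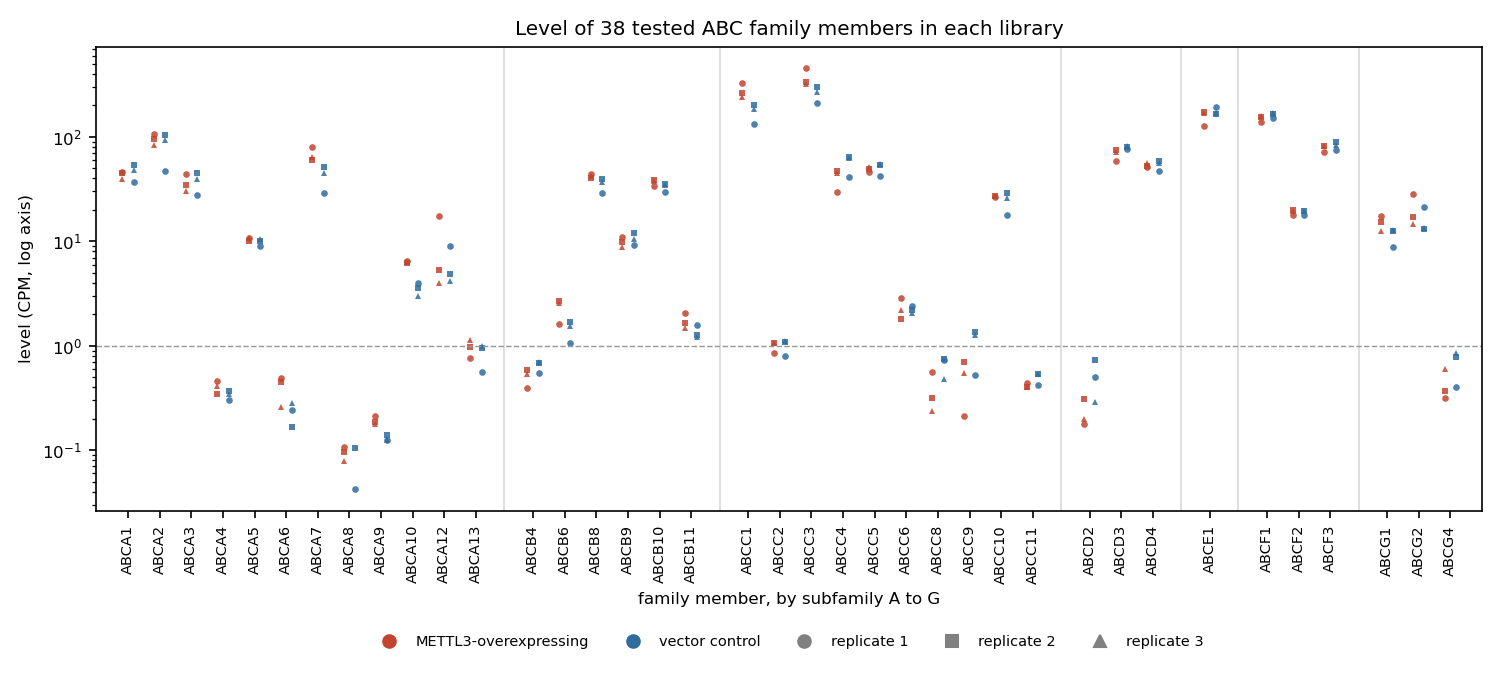
Level in CPM on a log axis for 38 of the 40 tested members, ordered by subfamily from A to G, with 1 point for each library (colour for the group, shape for the replicate number) and a dashed line at 1 CPM. ABCC1, ABCC3, ABCE1 and ABCF1 are the 4 members with a mean of 100 CPM or more, and vector control replicate 3 of ABCA8 is at 0 and not drawn.

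The 6 members that did not pass the filter included ABCB1, the exporter of taxanes and other bulky drugs. ABCB1 had 0, 4 and 0 counts with METTL3 and 12, 0 and 2 counts in the vector controls, 18 counts in all. A floor of 3 counts corresponds to 0.0242 to 0.0316 CPM in these libraries, and METTL3-overexpressing replicate 2 and vector control replicate 1 lay above it. Every ABCB1 count above 0 was even, as were 67.6% to 70.5% of the counts from 1 to 20 per library. The floor assumes independent counts, and whether this holds was not tested. No ABCB1 difference was detectable at this depth, and no fold change is given. ABCB5 had 54 counts over the 6 libraries, of which 26 were in METTL3-overexpressing replicate 1, and the sterol exporter subunits ABCG5 and ABCG8 had 10 and 55. ABCC12 had 7 counts.

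On all 6 libraries, 0 of the 40 tested members reached an adjusted p under 0.05 in edgeR, against a background of 0% of 22038 genes tested, so the family gave no call in a comparison that gave none for any gene. DESeq2 on the same libraries called 1 member, ABCA10, as higher with METTL3, where it called 193 of 22038 genes higher and 87 lower. At an unadjusted p under 0.05, 5 members were higher with METTL3, against a background of 4.4% of all genes, and 1 was lower, against 3.91%. With the replicate number as a block these counts were 6 higher, against 6.05%, and 5 lower, against 5.2%, and they then included ABCG2 on the higher side and ABCC4 on the lower. The 6 members without the block were ABCA7, ABCA10, ABCB6, ABCC1 and ABCC3 on the higher side and ABCD2 on the lower side. Fitted log2 fold changes lay above 0 for 21 members and below 0 for 19, where 47.3% of all genes lay above 0. The median log2 fold change was 0.07 over the members and -0.02 over all genes. In 6 members every METTL3-overexpressing library lay above every control, against 8.47% of all genes, and in 1 member, the peroxisomal ABCD3, every one lay below, against 8.93%. Apart from ABCA7, ABCA10, ABCC1 and ABCC3, the non-overlapping members above were ABCA9 and ABCB8, named after their values were seen. In 20 of 40 members the METTL3 to vector difference had the same sign in each replicate number, 11 higher and 9 lower. The matching share of all genes was not computed, so this count describes the members only.

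The drug exporters are given library by library. ABCC1 (ENSG00000103222.20, GRCh38 chr16:15949138-16143257), the MRP that exports glutathione and other conjugates, stood at 328.3, 264.2 and 241.1 CPM with METTL3 and at 131.8, 203.0 and 185.8 CPM in the controls. The lowest METTL3-overexpressing library was above the highest control, and the widest gap was between the replicate 1 libraries. Means were 277.8 ± 45.2 and 173.5 ± 37.1 CPM (SD, n = 3), a mean 60.1% higher with METTL3, and the log2 fold change was 0.68 with an SE of 0.19 (edgeR adjusted p = 0.438). ABCC3 (ENSG00000108846.16, chr17:50634777-50692253), an exporter of glucuronides and bile acids, stood at 455.4, 333.8 and 318.7 CPM with METTL3 and at 213.2, 297.2 and 266.1 CPM in the controls. Here too the groups did not overlap and the replicate 1 libraries formed the extremes. The log2 fold change of ABCC3 was 0.51 with an SE of 0.18 (edgeR adjusted p = 0.553).

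ABCC4 (ENSG00000125257.16, chr13:95019835-95301475), an exporter of cyclic nucleotides and nucleotide analogues, ran the other way. It stood at 29.8, 47.3 and 45.2 CPM with METTL3 and at 40.9, 64.1 and 62.2 CPM in the controls. METTL3 was lower within each replicate number, but the groups overlapped because vector control replicate 1 lay below METTL3-overexpressing replicates 2 and 3. Means were 40.75 ± 9.57 and 55.7 ± 12.9 CPM (SD, n = 3), and the log2 fold change was -0.45 with an SE of 0.22 (edgeR adjusted p = 0.625). The log2 ratio was -0.46 within replicate 1 and -0.45 in replicates 2 and 3, and the difference between them did not pass the test (edgeR adjusted p = 0.954). ABCC4 is on a list of genes that the study picked from these libraries together with METTL3 knockdown libraries, which were not analysed here. Its direction here is therefore not independent evidence for that list.

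ABCG2 (ENSG00000118777.12, chr4:88090150-88231628), which exports a broad range of drugs as well as urate, stood at 28.6, 17.2 and 14.7 CPM with METTL3 and at 21.2, 13.1 and 13.3 CPM in the controls. The METTL3-overexpressing library was the higher within each replicate number, and in both groups replicate 1 was the highest library, so the groups overlapped. The log2 fold change was 0.35 with an SE of 0.28 (edgeR adjusted p = 0.730), and it was 0.03 without METTL3-overexpressing replicate 1 and 0.61 without vector control replicate 1. ABCC5, which exports cyclic nucleotides and folate analogues, stood at 46.2, 49.0 and 51.5 CPM with METTL3 and at 42.5, 54.1 and 54.9 CPM in the controls, with a log2 fold change of -0.05 and an SE of 0.13 (edgeR adjusted p = 0.931). ABCC2, the conjugate exporter of the bile canaliculus, was near 1 CPM, at 0.860, 1.06 and 1.06 CPM with METTL3 and at 0.801, 1.09 and 1.12 CPM in the controls. Both overlapped between the groups, and the log2 fold change of ABCC2 was -0.02 with an SE of 0.24 (edgeR adjusted p = 0.990).

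**Figure D2:**
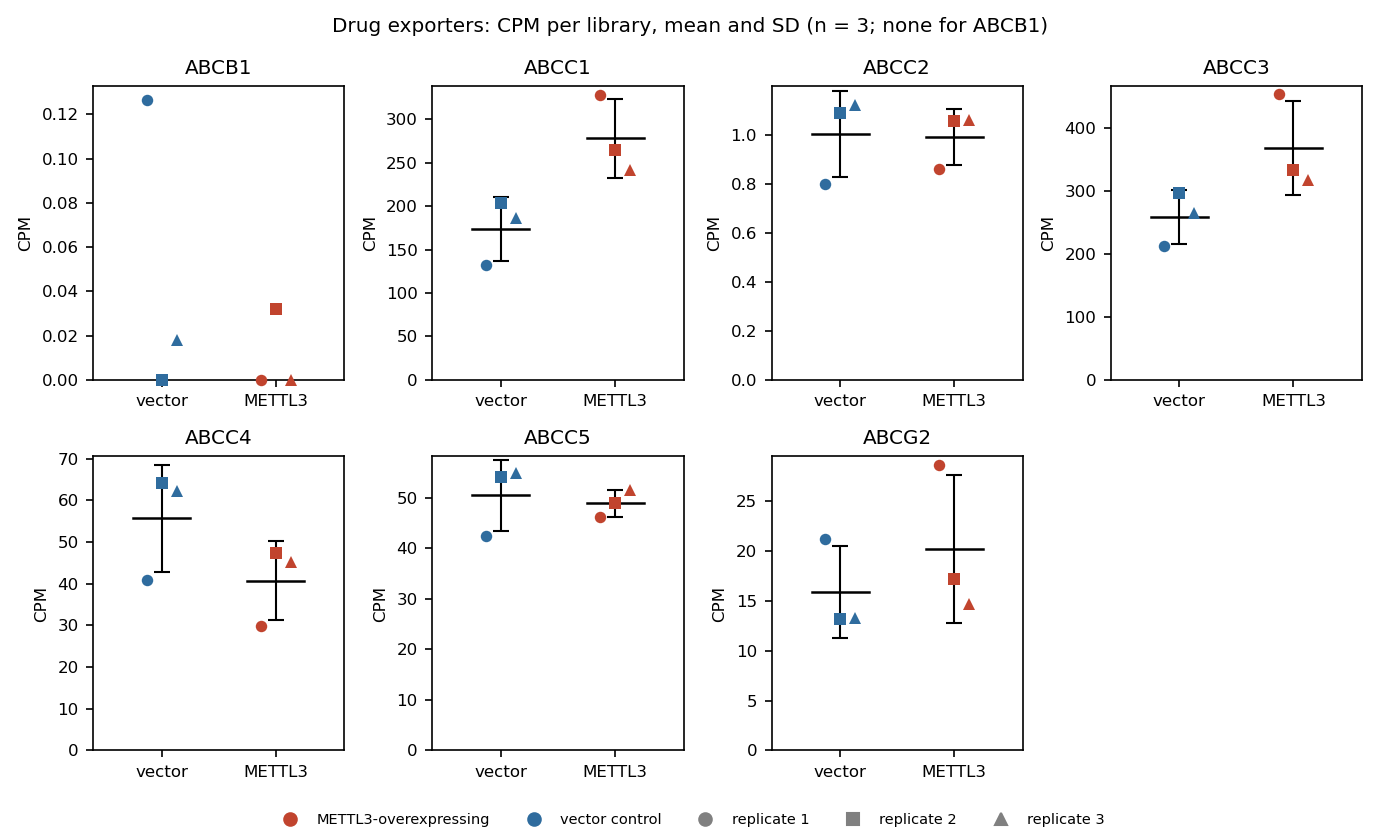
CPM on linear axes from 0 for the 7 drug exporters, with 1 point for each library (colour for the group, shape for the replicate number) and the mean and SD of 3 libraries in black, which are left out for ABCB1 at 18 counts. ABCC1 and ABCC3 do not overlap between the groups, ABCC4 is lower with METTL3 within each replicate number, and replicate 1 of each group is the highest library for ABCG2 and the lowest for ABCC4.

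Beyond the exporters, 4 members had an unadjusted p under 0.05 on all 6 libraries. ABCA7, a phospholipid carrier related to ABCA1, stood at 80.0, 60.3 and 63.7 CPM with METTL3 and at 28.9, 52.0 and 45.5 CPM in the controls. ABCA10, a little-studied member of the lipid carrier cluster on chromosome 17, stood at 6.47, 6.18 and 6.33 CPM against 4.02, 3.58 and 3.00 CPM. For both genes the groups did not overlap, and for ABCA10 the METTL3-overexpressing libraries differed from each other by less than the gap between the groups. The log2 fold change was 0.69 with an SE of 0.22 for ABCA7 (edgeR adjusted p = 0.508). It was 0.84 with an SE of 0.17 for ABCA10 (edgeR adjusted p = 0.341), and this member passed the threshold in DESeq2 and in edgeR without vector control replicate 1. ABCB6, which has been linked to porphyrin transport, stood at 1.61, 2.71 and 2.56 CPM with METTL3 and at 1.06, 1.70 and 1.56 CPM in the controls, with a log2 fold change of 0.67 and an SE of 0.28 (edgeR adjusted p = 0.586). Of the exon bases of ABCB6, 54.6% overlap another gene on the same strand (ENSG00000284820), so its count is uncertain. ABCD2, a peroxisomal fatty acid carrier, stood at 0.177, 0.307 and 0.198 CPM with METTL3 and at 0.506, 0.726 and 0.290 CPM in the controls. Its groups overlapped by METTL3-overexpressing replicate 2 and vector control replicate 3, and the log2 fold change was -1.15 with an SE of 0.42 (edgeR adjusted p = 0.562).

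By subfamily, log2 fold changes on all 6 libraries lay above 0 in 10 of 12 tested A members, 4 of 7 B members, 4 of 10 C members, 1 of 4 D members and 2 of 3 G members, and in neither ABCE1 nor any of the 3 tested F members. Of all genes, 47.3% lay above 0, and of the 12 A members only 7 were at a mean of 1 CPM or more. The median was 0.40 in A, 0.15 in B, -0.03 in C, -0.11 in D, -0.07 in F and 0.35 in G, and that of all genes was -0.02. In replicates 2 and 3 the median was 0.09 in A, 0.11 in B, -0.10 in C, -0.16 in D, -0.08 in F and 0.13 in G, so the values of A and G were smaller there. These counts describe the subfamilies, and no test of a subfamily was run. Several members share sequence or exons with other genes, which counting can split. ABCF2 shares 37.1% of its exon bases with its readthrough on the same strand, ABCB9 24.6% and ABCE1 6.52% with genes on the opposite strand, and ABCC6 has pseudogene copies. The strand setting of the counting is not given in the sources used here.

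The same comparison gave calls in replicates 2 and 3. On those 4 libraries 11 of 40 tested members passed the threshold, 6 higher with METTL3 against a background of 6.66% of 22046 genes and 5 lower against 8.59%. The median log2 fold change of the members was -0.01, and that of all genes was -0.00335. ABCC1 rose by 29.8% and ABCC3 by 15.7% in the fit, log2 fold changes of 0.38 and 0.21 (edgeR adjusted p = 0.00066 and 0.026). ABCG2 rose by a log2 value of 0.27 with an adjusted p of 0.0496 in edgeR, just inside the threshold. ABCC4 fell by 26.8% in the fit, a log2 fold change of -0.45 (edgeR adjusted p = 7.88e-05). Of the 6 exporters tested, 3 thus rose, 1 fell, and ABCC2 and ABCC5 did not pass, at log2 fold changes of -0.06 and -0.12. Each of these differences is small beside the gap in METTL3, which was 1.28 on the log2 scale in the same libraries.

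The other 7 members that passed in replicates 2 and 3 belonged to subfamilies A, B and C. ABCA10 rose with a log2 fold change of 0.92, ABCB6 with 0.69 and ABCA7 with 0.35 (edgeR adjusted p = 0.00011, 0.0087 and 0.0025). ABCA1, which loads cholesterol onto apolipoprotein particles, fell with a log2 fold change of -0.29, from 54.0 and 48.5 CPM in the controls to 45.0 and 39.1 CPM (edgeR adjusted p = 0.0193). ABCA3, the surfactant lipid carrier of lung lamellar bodies, fell with -0.38, from 45.5 and 39.6 CPM to 34.8 and 30.5 CPM (edgeR adjusted p = 0.0047). For both genes replicate 1 ran the other way, at 46.6 against 37.3 CPM for ABCA1 and 43.8 against 27.6 CPM for ABCA3. The sulphonylurea receptors ABCC8 and ABCC9, regulatory subunits of potassium channels, fell with log2 fold changes of -1.14 and -1.05 (edgeR adjusted p = 0.0393 and 0.0063). Both were low, with ABCC8 at 0.567, 0.315 and 0.238 CPM with METTL3 and 0.727, 0.743 and 0.480 CPM in the controls. ABCC9 stood at 0.213, 0.702 and 0.555 CPM against 0.527, 1.36 and 1.26 CPM. ABCA1, ABCC3, ABCC8 and ABCG2 lost the call when 1 of the 4 libraries was left out, a fit in which the lone library of a group is assumed to vary like the pair in the other: ABCC8 and ABCA1 without METTL3-overexpressing replicate 3 or vector control replicate 2, ABCG2 without replicate 2 of either group, and ABCC3 without METTL3-overexpressing replicate 2 or vector control replicate 3. With the replicate number as a block 16 members passed, the 11 above and 5 more on the lower side, ABCA2, ABCB9, ABCD3 and ABCG4 among them. These were 6 higher and 10 lower, and that fit called 11.3% of all genes higher and 13.4% lower.

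**Figure D3:**
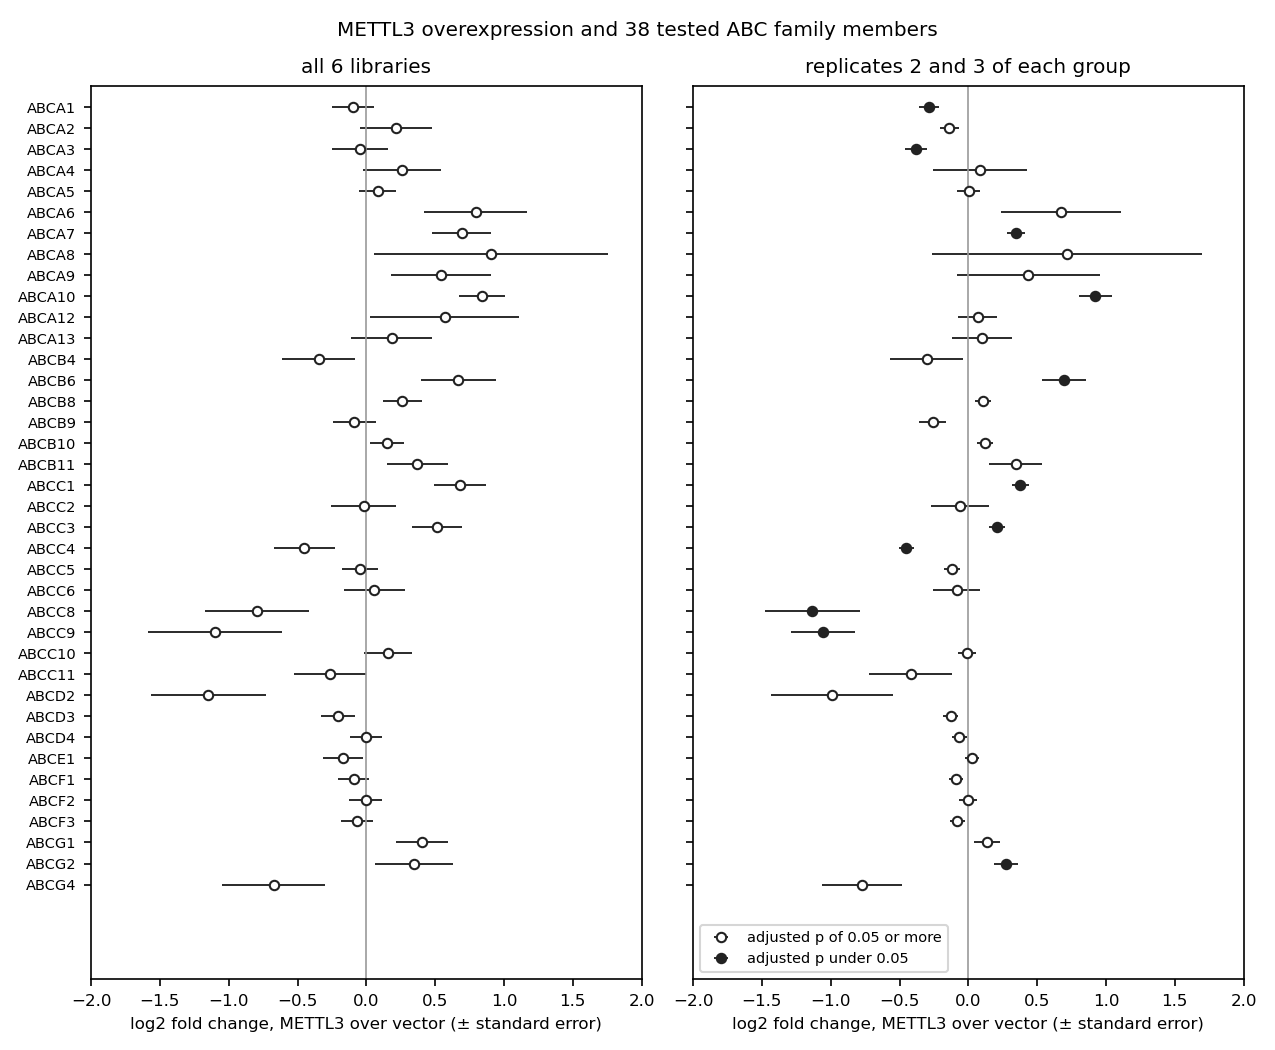
Log2 fold change of METTL3-overexpressing over vector control libraries for 38 of the 40 tested members, with bars of 1 standard error, on all 6 libraries (left) and on replicates 2 and 3 of each group (right), with filled points for an edgeR adjusted p under 0.05. No point is filled on the left and 11 are filled on the right, where ABCC1 moves from 0.68 to 0.38 and ABCC4 stays at -0.45.

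Members also differed between replicate 1 and the other libraries of the same group. With the group in the model, 5 of 40 members passed the threshold, 2 higher in replicate 1 against a background of 4.25% of all genes and 3 lower against 4.81%. ABCA12, which loads lipid into the lamellar granules of keratinocytes, was higher by 1.48 on the log2 scale (edgeR adjusted p = 0.0095). Its levels were 17.4, 5.33 and 4.03 CPM with METTL3 and 9.09, 4.82 and 4.13 CPM in the controls, so replicate 1 was the highest library in both groups. ABCG2 was higher by 0.77 (edgeR adjusted p = 0.0082). ABCC4, ABCC9 and ABCB6 were lower in replicate 1, with log2 differences of -0.63, -1.42 and -0.66 (edgeR adjusted p = 0.0080, 0.0147 and 0.0446). Setting replicate 2 or replicate 3 apart in the same way called no member and no gene in edgeR. At an unadjusted p under 0.05 there were 0 members in either case, against 0.867% and 1.24% of all genes. Replicate 1 then stayed among the other libraries and widened their spread, so these fits could hardly give a call. They cannot show whether replicate 2 or 3 is set apart as well.

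**Figure D4:**
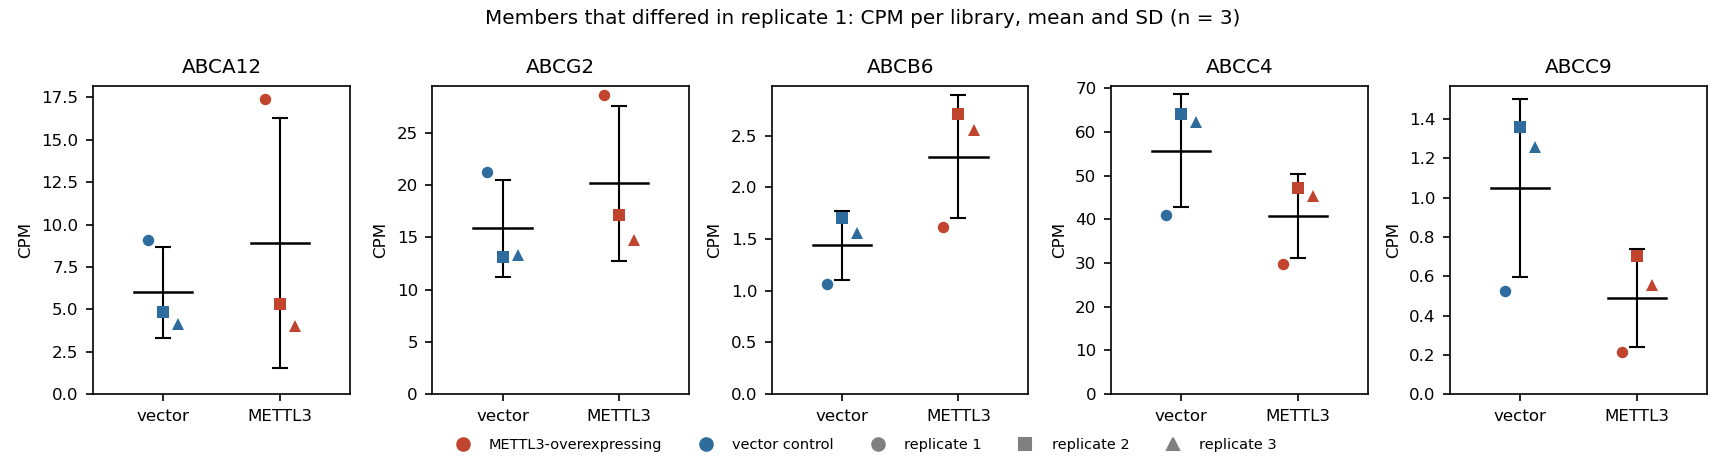
CPM on linear axes from 0 for the 5 members that differed between replicate 1 and the other libraries, with 1 point for each library and the mean and SD of 3 libraries in black. Circles, which mark replicate 1, are the highest points of both groups for ABCA12 and ABCG2 and the lowest for ABCB6, ABCC4 and ABCC9.

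The size of the METTL3 difference itself also depended on the replicate. The difference between the METTL3 effect in replicate 1 and that in replicates 2 and 3 passed the threshold for 15 of 40 members, 12 with a larger effect in replicate 1 against a background of 14.7% of all genes and 3 with a smaller effect against 15.5%. In this fit each replicate 1 library is alone in its group and was assumed to vary like the others. ABCC1 was 2.49 times and ABCC3 2.14 times its control in replicate 1, and for both genes the sign was the same in replicates 2 and 3. ABCA2 stood at 105.4, 95.9 and 84.3 CPM with METTL3 and at 47.6, 103.9 and 94.3 CPM in the controls, so that vector control replicate 1 alone was set apart. ABCE1 stood at 126.7, 171.1 and 170.5 CPM with METTL3 and at 191.5, 164.6 and 170.4 CPM in the controls, the reverse order in replicate 1. In 8 of the 15 members the sign of the effect in replicate 1 was opposite to that in replicates 2 and 3. Over the 40 tested members, vector control replicate 1 was the lowest of the 6 libraries for 19, and METTL3-overexpressing replicate 1 was the highest for 17 and the lowest for 11. Shares over all genes were not computed for these counts or for the 8 opposite signs, so they are not results about the family.

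GC content of the longest transcript moved with these values. Over the 28 members at 1 CPM or more, Spearman's rho between GC content and the log2 ratio of METTL3 to vector, with 0.5 CPM added to each level, was 0.513 in replicate 1 and -0.233 in replicates 2 and 3. Over 14664 genes at the same level it was 0.402 and -0.0197. All points of a panel share the same libraries, so these values are descriptions across genes. ABCA7 at 64.5% GC, ABCA2 at 63.7%, ABCC3 at 55.7% and ABCC1 at 54.9% were among the members with the largest ratios in replicate 1. ABCE1 at 35.5% and ABCD3 at 37.6% were among those with the smallest. Other members departed from the trend, such as ABCA12 at 42.6% GC with a ratio of 0.90 and ABCB9 at 63.3% with 0.26. ABCA10, at 36.9% GC, and ABCC4, at 43.2%, kept ratios of the same sign in both panels. With the GC and length trend of each library removed, 0 members passed on all 6 libraries, 12 passed in replicates 2 and 3 and 10 passed the test of the difference between replicates. In replicates 2 and 3 these were 7 higher, against 10.5% of all genes under that setting, and 5 lower, against 10.3%. In the test of the difference they were 9 larger in replicate 1, against 10.9%, and 1 smaller, against 16.2%.

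**Figure D5:**
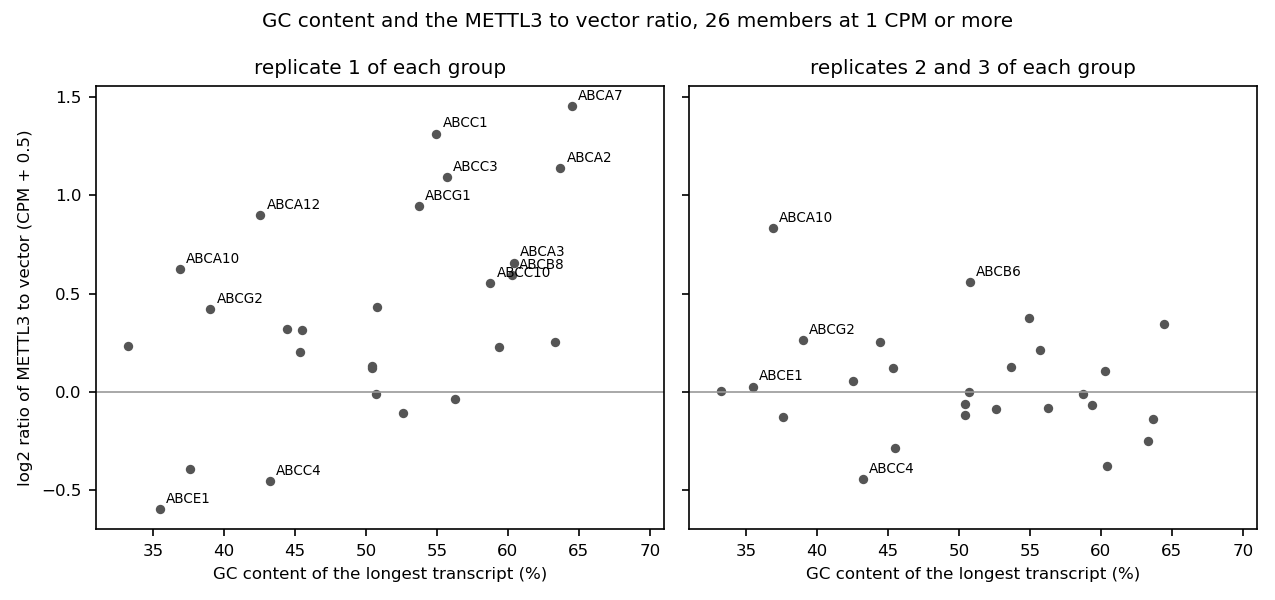
GC content of the longest transcript (%) against the log2 ratio of METTL3-overexpressing to vector control (CPM + 0.5) for 26 of the 28 members at 1 CPM or more, in replicate 1 (left) and in replicates 2 and 3 (right). GC-rich members tend to lie higher on the left (rho over all 28 members 0.513) and do not on the right (rho -0.233).

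RefSeq promoter windows (GRCh38.p14, 250 bases before to 50 after the annotated start) were matched for 36 of the 46 members, of which ABCF2 and its readthrough have the same window. Upstream bases that no GENCODE exon covers are shown for ABCA7 and ABCA10, whose groups did not overlap, and for the exporter ABCC4, which was lower with METTL3 in each replicate number. They are written 5′ to 3′ on the gene's strand, and capitals mark the matches to the motifs searched. The stretches lie at chr19:1039857-1039996 (plus strand) for ABCA7, chr17:69228861-69229074 (minus) for ABCA10 and chr13:95301476-95301701 (minus) for ABCC4. The ABCA10 stretch is upstream of the RefSeq start only. It lies inside the GENCODE gene (chr17:69147214-69244846), between exons of that gene.
ABCA7: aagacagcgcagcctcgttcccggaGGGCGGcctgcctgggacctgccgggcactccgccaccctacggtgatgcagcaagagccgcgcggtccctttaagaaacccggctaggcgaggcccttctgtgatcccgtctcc
ABCA10: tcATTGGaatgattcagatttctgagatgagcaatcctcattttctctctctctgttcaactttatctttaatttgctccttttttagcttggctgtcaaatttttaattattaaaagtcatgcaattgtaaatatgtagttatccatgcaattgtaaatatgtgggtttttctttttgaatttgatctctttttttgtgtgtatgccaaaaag
ABCC4: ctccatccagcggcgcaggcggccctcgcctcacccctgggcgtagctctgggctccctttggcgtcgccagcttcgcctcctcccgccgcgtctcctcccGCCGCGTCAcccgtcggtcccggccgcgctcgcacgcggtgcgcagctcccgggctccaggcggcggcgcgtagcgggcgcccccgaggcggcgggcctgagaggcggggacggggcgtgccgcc

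The motifs were searched on both strands of the whole windows, and those of the antioxidant element and the GC box can overlap, as they do in ABCB9. The GC box (GGGCGG) began at -225 in ABCA7, counted from the RefSeq start, and was held by 17 of the 35 distinct member windows and by 44.9% of all 34943 distinct promoter windows. The CCAAT box (CCAAT) began at -248 in ABCA10 and was held by 10 member windows and 34.6% of all. The core of the antioxidant response element (TGACNNNGC) began at -149 in ABCC4 and was held by 9 member windows and 13.3% of all. The nuclear receptor motif (AGGTCA), E-box (CACGTG) and TATA box (TATAAA) were held by 3, 6 and 7 member windows and by 13.8%, 7.23% and 11.6% of all. A match describes letters in the window, and no binding was measured.

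Other genes of the pathways in which the family works were read from fixed lists, none of which held a call on all 6 libraries in edgeR. Among 22 tested transcription factors linked to ABC genes, 14 log2 fold changes lay above 0 and 8 below, where 47.3% of all genes lay above 0. At an unadjusted p under 0.05, 5 were higher, against a background of 4.4% of all genes, and 1 was lower, against 3.91%. The 2 with the smallest p were PPARA and PPARG. PPARA, a lipid-sensing nuclear receptor, stood at 36.4, 28.8 and 24.5 CPM with METTL3 and at 16.6, 20.6 and 17.9 CPM in the controls, a log2 fold change of 0.70 (edgeR adjusted p = 0.398). PPARG, the adipogenic receptor of the same group, ran the other way at 54.3, 56.7 and 58.6 CPM against 75.2, 66.0 and 75.8 CPM, a log2 fold change of -0.35 (edgeR adjusted p = 0.481). For both genes the groups did not overlap.

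Among 16 tested genes of glutathione supply and conjugation, which make the substrates of ABCC1 and ABCC2, 5 log2 fold changes lay above 0 and 11 below. GSTA4, a transferase for lipid peroxidation products, had an unadjusted p under 0.05, at 2.15, 1.85 and 1.70 CPM with METTL3 and 2.51, 2.97 and 2.60 CPM in the controls, a log2 fold change of -0.50 (edgeR adjusted p = 0.565). In the other 6 lists no gene had an unadjusted p under 0.05. The counts above and below 0 were 4 and 3 for membrane anchors of exporters, 3 and 6 for cholesterol efflux, 3 and 7 for peroxisome partners of subfamily D, 6 and 11 for the iron-sulphur and haem pathway, and 3 and 7 for translation partners of the E and F members. TAP1, TAP2 and CFTR, ABC proteins with other symbols, had 3 log2 fold changes above 0 and none that passed. In replicates 2 and 3, where 6.66% of all genes rose and 8.59% fell, 5 of the 22 transcription factors rose and 2 fell, and 3 of the 7 membrane anchors rose and 1 fell. In cholesterol efflux 0 of 9 rose and 3 fell, and in the iron-sulphur and haem pathway 0 of 17 rose and 2 fell. The glutathione and peroxisome lists had 1 rise and 1 fall each, and no translation partner or ABC protein with another symbol passed.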

How the data were processed

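Per the labels and the study's methods, reads of 6 libraries were aligned by the authors to hg38 (GRCh38) with HISAT2 and counted per gene with featureCounts of Subread, with fastp also listed. Raw counts were deposited, 1 column per library. Versions, annotation release, strand setting and treatment of multimapping reads are not given in the sources used here, and the sources differ on the library kit (TruSeq Stranded in the labels, NEBNext in the methods). Of the counts from 1 to 20, 67.6% to 70.5% per library were even. Gene names came from GENCODE 44, which named 60463 of 60649 rows.

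Counts were scaled by TMM and fitted over 22038 genes (filterByExpr) with edgeR 4.0.16 in R 4.3.3 (robust quasi-likelihood test, Benjamini-Hochberg adjustment, threshold 0.05). The methods name DESeq2, used here as an alternative (1.42.0). CPM used TMM library sizes and SE was obtained by dividing the absolute log2 fold change by the root of the F statistic. The scripts were tested on simulated data. Library depth of 96633925 to 125463386 counts limits members with a few counts, and floors cover counting error only.

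Replicate numbers come from the titles. Deviations of same-numbered libraries from their group means correlated at 0.33, 0.12 and 0.17 for replicates 1, 2 and 3. METTL3-overexpressing replicate 2 correlated at 0.21 with vector control replicate 3, above both same-numbered values of replicates 2 and 3. Pairing of the numbers 2 and 3 was therefore not shown. The fits reported are without pairing, and the replicate block is an alternative. Members, lists and comparisons were chosen with earlier results of these data known. Genes named were the exporters, members with an unadjusted p under 0.05 on all libraries or a call in the other comparisons, the leader of each subfamily, and per list at most 3 genes with an unadjusted p under 0.05. Members that differed between replicates, and those whose groups did not overlap, were added after their values were seen. Alternatives were another scaling, filter or tool, a replicate block, GC and length offsets, counts divided by 2 and leaving out each library. Values of a few genes are not reported here and their points are left out of the plots, while counts, medians and correlations include them.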

Additional observations from a re-analysis of the deposited data

Results flagged for a closer look

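For 15 members the METTL3 effect differed between replicate 1 and replicates 2 and 3 in edgeR's test of that difference at an adjusted p under 0.05, with the lone replicate 1 libraries assumed to vary like the others. For the 13 given here, the difference, log2 effect in replicate 1 minus that in replicates 2 and 3, was 0.94 for ABCC1 and 0.88 for ABCC3 among the drug exporters, both of which were higher with METTL3 in every replicate. ABCC10, a further exporter of subfamily C, differed by 0.57. In subfamily A the differences were 0.61 for ABCA1, 1.28 for ABCA2, 1.05 for ABCA3, 1.12 for ABCA7 and 0.87 for ABCA12. In subfamily B they were 0.50 for ABCB8 and 0.53 for the lysosomal peptide carrier ABCB9. In subfamily D the peroxisomal carrier ABCD3 differed by -0.27. ABCE1 differed by -0.62, and ABCG1, which exports cholesterol to lipoproteins, by 0.85. The effect had opposite signs in replicate 1 and in replicates 2 and 3 for 8 members, and the share over all genes was not computed. Among them were ABCA1, ABCA2, ABCA3, ABCB9, ABCC10 and ABCE1. In replicates 2 and 3, however, the log2 effects of ABCC10 (-0.00986, SE 0.067) and ABCE1 (0.03, SE 0.052) were within 1 SE of 0. GC content moved with the ratio in replicate 1, as given above, and its part in these differences was not tested. The fit with the GC and length trend removed, also given above, takes out both together. It also changed the share of all genes called.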

How the results depend on the processing

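On all 6 libraries, where edgeR called 0 members, DESeq2 called 1 (ABCA10), the fit with no filter on low counts 4 (ABCA7, ABCA10, ABCC1 and ABCC3) and replicates 2 and 3 of each group 11. Leaving out each library in turn gave 0 to 1 members, the 1 being ABCA10 without vector control replicate 1. That fit called 153 of 22627 genes higher and 214 lower, and the other fits that left out a library called no gene. Of the exporters, 0 were called, against 2 with no filter and 4 in replicates 2 and 3. Over all genes DESeq2 called 193 higher and 87 lower of 22038, and no filter 337 higher and 223 lower of 43096, where edgeR called 0. With the replicate block 0 members were called on all 6 libraries and 16 in replicates 2 and 3. With all 4 libraries of replicates 2 and 3 kept, calls ranged from 10 to 16 members over the alternatives. DESeq2, with 10 members, called 1542 of 22046 genes higher and 1691 lower. The replicate block, with 16 members, called 2499 higher and 2951 lower. ABCC8 had no adjusted p in DESeq2, while ABCG2 lost its call with upper-quartile scaling. With the GC and length trend removed, genes called in replicates 2 and 3 numbered 2314 higher and 2255 lower, against 1469 and 1893. The test of replicate 1 gave 0 members with replicate 2 and 0 with replicate 3 set apart, fits in which replicate 1 stayed among the other libraries. Near-zero log2 fold changes turned: ABCC2, -0.02, was 0.0022 with at least 10 counts in every library, 0.0088 with counts divided by 2 and -0.16 to 0.0925 leaving out each library, and ABCC5, -0.05, was -0.16 to 0.0422. The causes were not tested. Alternatives for the difference between replicates were chosen after seeing the data and gave 10 to 15 members. Depth limits ABCB1, ABCB5, ABCC12, ABCG5 and ABCG8, while every exon base of the readthrough ABCF2-H2BK1 overlaps another gene on its strand, so reads may not be assigned to it.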
